A study of Mus musculus with 22 samples.

Results

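The response of FE1 cells to the lowest dose of Mitsui7, a multi-walled carbon nanotube, was read from 11 of the 22 arrays of the series: the 6 arrays of cells given 12.5 µg/ml (low dose) and the 5 of cells given 0 µg/ml (control), chosen by their labelled dose. FE1 is an epithelial cell line derived from the lung of the MutaMouse, so both groups came from 1 line, and both were grown in medium with 2% fetal bovine serum and murine epidermal growth factor and collected after 24 h with or without the nanotube. Each array compared the Cy5 labelled RNA of 1 sample with the same Cy3 labelled Universal Mouse Reference RNA, a pool from mouse cell lines, and a value is the log2 of Cy5 over Cy3 after loess normalisation. The other 11 arrays, of cells given 25 or 100 µg/ml (medium and high dose), entered the model only to share its estimates of spread and slide. Slides 1 to 4 held arrays of both groups, and low dose replicate 5 lay on slide 5, which held no control. The study describes 3 separate exposure experiments and 6 replicates per concentration. The labels number the samples without tying each to a culture of its own or to 1 of those experiments. The model counts the arrays as independent, so p-values measure the spread between these samples, which may be partly technical. Of the lung epithelial markers, Krt8 and Krt18 were detected on all 11 arrays, Muc1 on 4 of 5 control and 3 of 6 low dose arrays, Cldn4 on 4 of 5 and 4 of 6, Epcam on 2 of 5 and 2 of 6, and Cdh1 and Nkx2-1 on none. Both keratins lay far below the reference pool, with mean log2 ratios in the control arrays of -4.35 for Krt8 and -5.62 for Krt18. Of the 8 fibroblast markers 7 were detected, as were 5 of 8 macrophage and leukocyte markers and 3 of 6 endothelial markers. Detection above the negative controls was therefore not taken to mark a cell type.

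As background, cells under stress slow general protein synthesis and make the transcription factors ATF4 and CHOP, which switch on amino acid supply and stress regulator genes. Stress inside the endoplasmic reticulum (ER) additionally raises its folding chaperones through ATF6 and XBP1. Growth factor and stress kinases act within the same cell through immediate early genes such as Fos and Jun, the parts of the AP-1 transcription factor, and are held back by dual specificity phosphatases.

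At 12.5 µg/ml 706 of the 13681 genes tested changed, 296 higher and 410 lower. A gene was read by its brightest detected probe and called at a Benjamini-Hochberg adjusted p (limma) of at most 0.05 and at least a 1.5-fold change. Among the called genes 169 had 2 or more detected probes. Every detected probe was called the same way for 63 of them, and a probe was called the other way for 0. Of the genes named below, Lifr was called on 1 of 3 detected probes, and Gas1 and Vcam1 on 1 of 2 each. The share called was 5.16% of all genes tested, 2.16% higher and 3.00% lower, and the median log2 change over all genes was 0.000804. The slide-adjusted values of the control and low dose arrays did not overlap for 610 of the 706. Within every slide where both groups were measured 692 changed in the same direction, beside 35.2% of all genes tested. The share of all genes without overlap is not given here. Both counts describe genes that the same fit had picked, which raises them, so they are no separate support. Of the 706 genes 45 belonged to the fibrosis, aryl hydrocarbon receptor, cholesterol or glutathione lists of the study, which leaves 661 outside them. Some of the 45 recur in the groups below, among them Fos, Jun, Myc, Hsp90b1, Hadhb, Ccl5, Edn1 and Lbp. Median centring of the arrays in place of loess normalisation kept 269 of the calls and gave 297, with 49 higher and 248 lower, and moved the median of all genes to -0.107. In that setting every one of the 706 genes kept its sign, and which calls it kept is given beside the groups of genes below.

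The 6 low dose arrays moved mostly the same way in the called genes. When each was set against the genes called without it, between 97.9% and 99.9% of those genes moved the same way in it, by a median of 0.707 (replicate 2) to 1.09 (replicate 1) of the fitted change. The same comparison for a left-out control array gave shares of 36.1% to 74.7%. The slide effects had been fitted once with the left-out array included, so its own value entered the comparison. These shares are therefore no independent check. Low dose replicate 5 (99.9%) shared its slide with 1 high dose array only. Outlier spots were left out gene by gene, so some genes below were fitted without 1 or more arrays. These were Zfp467 (3 control and 6 low dose arrays left), Cdkn2c and Hbegf (4 and 4), Aldh6a1, C1s1, Klf9, Mt1 and Sgms2 (4 and 5), Dbp, F3, Idh1, Lifr, Pmaip1, Procr and Slc6a9 (4 and 6), Acly, Atf3, Cx3cl1, Echs1, Gapdh, Id3 and Slc7a1 (5 and 5), and Gas1 (3 and 4). Detected probes ran from 23688 to 39139 on control arrays and from 25884 to 37010 on low dose arrays.

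Among genes well above background in both groups, the largest increases were in the proliferins Prl2c5 and Prl2c1, hormones of the prolactin family. The Prl2c1 log2 ratios were -0.28, -0.26, -0.24, -0.65 and -0.26 on the control arrays and ran from 2.26 to 2.79, with a median of 2.61, on the low dose arrays. Every low dose array thus lay above every control, and the fitted change was 2.94 ± 0.13 on the log2 scale (SE, n = 5 and 6; adjusted p = 6.3e-11). Prl2c5 changed by 2.99 ± 0.15, and since the proliferins are near-identical copies their probes may read one another. Next came Gsto2, an omega class glutathione transferase (2.61), and Il1rl1, the receptor of interleukin 33 (2.47), which rose while Il33 itself fell by 1.98. The other increases of this rank were in the stress regulator Atf3, the AP-1 part Fosl1, Tcim, the matrix protease Mmp3, the glutathione degrading enzyme Chac1, Itprip, the kinase Dyrk3 and the chemokine Ccl5, from 1.63 to 2.47. Dyrk3 had the widest spread of these, with a change within single slides of 0.934 to 4.02. Mmp13, a collagenase, rose by more than any of them (3.23 ± 0.18, adjusted p = 2.9e-09) but was well above background on only 3 control arrays.

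The largest decreases were in Mgp, matrix Gla protein, and Lama1, a laminin chain. Mgp read 1.37, 1.54, 1.45, 1.33 and 1.08 on the control arrays and from -3.17 to 0.0704, with a median of -0.645, on the low dose arrays, a change of -2.39 ± 0.42 (adjusted p = 0.0017). All low dose arrays were below the controls, with a wide spread among themselves. The complement regulators C4bp and Cd55 fell by 1.91 and 1.85. Rspo3, a secreted enhancer of Wnt signalling, fell by 1.77, and the growth arrest gene Gas1 by 1.84, the latter measured on 3 control and 4 low dose arrays. Nkain4, Sh3rf2, Ppp2r2b, a subunit of protein phosphatase 2A, and Nrxn2, a neurexin, fell by 1.76 to 1.85.

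**Figure D1:**
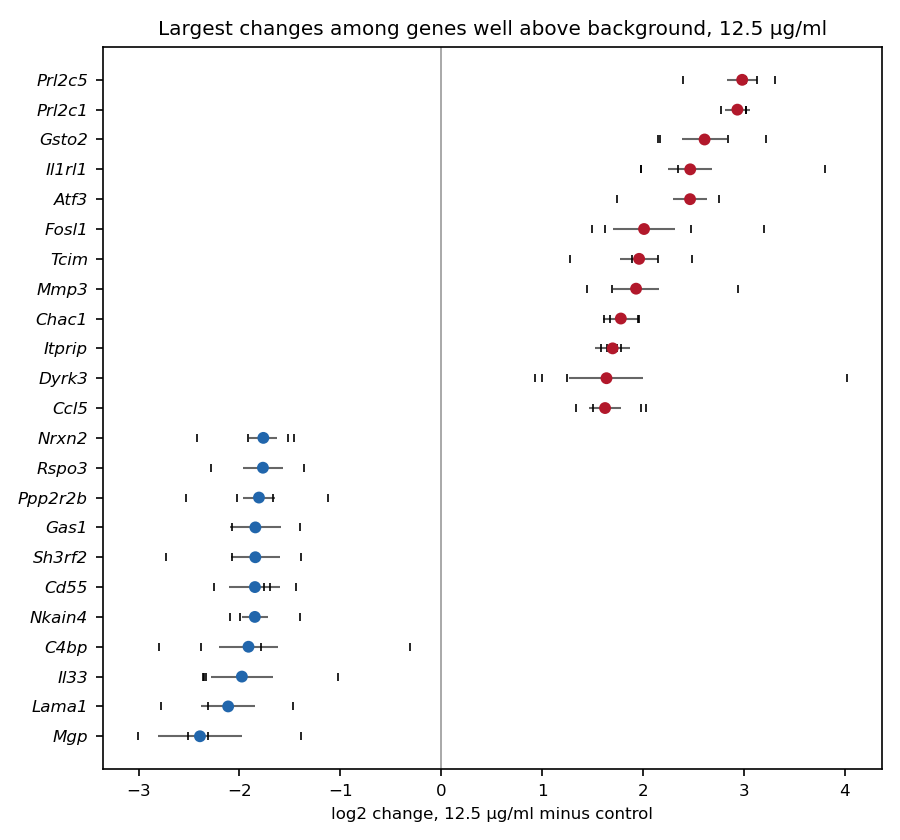
Log2 change between the 12.5 µg/ml and control arrays (x axis) of the 12 largest increases and 11 of the 12 largest decreases among called genes well above background in both groups (y axis). Circles are fitted changes with their SE and ticks are the changes within each of slides 1 to 4; increases run from 1.63 to 2.99 and decreases from -2.39 to -1.76.

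Of the 24 listed targets of ATF4 and CHOP, all detected, 10 were called higher and 0 lower, and the other 14 did not pass, with a median change of 0.62 and within-slide medians of 0.46 to 0.81. The 3 largest were Fgf21, a stress hormone (1.80), Chac1 (1.78) and Trib3, a pseudokinase (1.56). Ddit3, which encodes CHOP itself, read -0.93, -1.08, -1.10, -0.85 and -0.63 on the control arrays and between 0.0764 and 0.536 on the low dose arrays, a 2.43-fold rise (log2 change 1.28 ± 0.12, adjusted p = 1.4e-06). The groups lay apart without overlap. Nupr1, a stress-induced nuclear protein, rose by 1.47 ± 0.10, and Ppp1r15a, which restores protein synthesis after stress, by 1.25. Fgf21 was well above background on 2 control arrays only. The other called members were Asns (asparagine synthetase), Sesn2, Cebpb and Slc7a11, the cystine transporter, from 0.65 to 1.01. Median centring left 6 of the 10 called.

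The letters TGATGCAA, a composite element that C/EBP and ATF4 proteins bind, were searched on both strands of the 250 bases before the start of each gene (RefSeq, GRCm38.p6). They stood before 221 of 27025 genes (0.818%) and 72 of the 10894 tested genes with a promoter in the table (0.661%). Of the 296 genes called higher 224 had a promoter in the table and 6 held them (2.68%), against 3 of 307 called lower (0.977%). These 6 are shown because 4 of them are called ATF4 and CHOP targets and the other two are Atf3 and Tars, with the element in capitals and each stretch read along its gene.
Atf3 (chr1:191183406-191183473, minus strand): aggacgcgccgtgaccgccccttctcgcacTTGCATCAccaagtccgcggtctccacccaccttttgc
Chac1 (chr2:119351019-119351086, plus strand): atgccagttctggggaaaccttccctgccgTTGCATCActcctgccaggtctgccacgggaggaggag
Nupr1 (chr7:126625543-126625610, minus strand): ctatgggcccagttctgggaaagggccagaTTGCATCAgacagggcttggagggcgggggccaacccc
Slc7a11 (chr3:50443623-50443709, minus strand): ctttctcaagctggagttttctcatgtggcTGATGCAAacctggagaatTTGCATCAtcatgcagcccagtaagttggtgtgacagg
Fgf21 (chr7:45615592-45615659, minus strand): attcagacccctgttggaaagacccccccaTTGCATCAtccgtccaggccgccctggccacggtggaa
Tars (chr15:11399659-11399703, minus strand): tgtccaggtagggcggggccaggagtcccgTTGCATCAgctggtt
Slc7a11 carried the element once on each strand. A match is a run of letters and not a measured binding site.

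Called ER chaperones were lower. Of 19 detected genes of the unfolded protein response, 6 were called lower, 1 higher and 12 did not pass, with a median of -0.45 and within-slide medians from -0.59 to -0.28. The genes called lower were the chaperone Hsp90b1 (-0.68), the disulfide isomerase Pdia6 (-0.80), Dnajc3 (-0.75), Sdf2l1 (-0.87), Creld2 (-0.61) and the secreted factor Manf (-1.14). Dnajc3, a cochaperone that also restrains the kinase PERK, read 2.50, 2.03, 2.49, 2.36 and 2.34 on the control arrays and 1.42 to 1.89 on the low dose arrays. Sdf2l1 overlapped before the slide effect was removed, since the controls of slide 1 read 2.82 and 2.48 and the others -0.23 to 0.49, and did not overlap after. The fall of Manf ran from 0.45 to 2.99 within single slides. The major chaperone Hspa5 changed by -0.47 ± 0.10 (adjusted p = 0.0077), under the fold threshold. The 1 member called higher was Atf6, the membrane-bound sensor (0.64). Of these 7 genes Dnajc3 and Sdf2l1 kept their calls after median centring, which called 3 genes of the list lower and 0 higher.

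The ER stress element, to which ATF6 and the factor NF-Y bind (CCAAT, 9 bases of any kind, then CCACG), was chosen after these calls were seen and searched in the same way. It stood before 33 of 27025 genes (0.122%) and 17 of the 10894 tested genes with a promoter in the table (0.156%). Of the 5 chaperone genes called lower that had a promoter there, 4 held it and are shown with the element in capitals. None of the 224 promoters of genes called higher held it, and these were the 4 of the 307 of genes called lower that did (1.30%). Hspa5, under the fold threshold, held it as well.
Hsp90b1 (chr10:86705503-86705686, minus strand): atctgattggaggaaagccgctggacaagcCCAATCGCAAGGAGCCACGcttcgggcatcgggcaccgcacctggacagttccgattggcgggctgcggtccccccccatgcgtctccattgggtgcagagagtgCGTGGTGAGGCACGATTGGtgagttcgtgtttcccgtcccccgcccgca
Pdia6 (chr12:17266461-17266539, plus strand): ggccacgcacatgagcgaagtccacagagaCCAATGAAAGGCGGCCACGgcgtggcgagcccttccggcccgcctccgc
Dnajc3 (chr14:118937797-118937875, plus strand): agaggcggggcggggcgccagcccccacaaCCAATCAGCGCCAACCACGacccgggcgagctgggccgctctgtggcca
Creld2 (chr15:88819490-88819568, plus strand): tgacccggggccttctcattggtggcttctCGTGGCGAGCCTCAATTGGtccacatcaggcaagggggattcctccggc
Hsp90b1 carried it on both strands and Creld2 on the strand opposite to the gene. The inner letters CCAAT alone were common, at 34.5% of all promoters and 36.2% of those of tested genes, and stood before all 5.

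**Figure D2:**
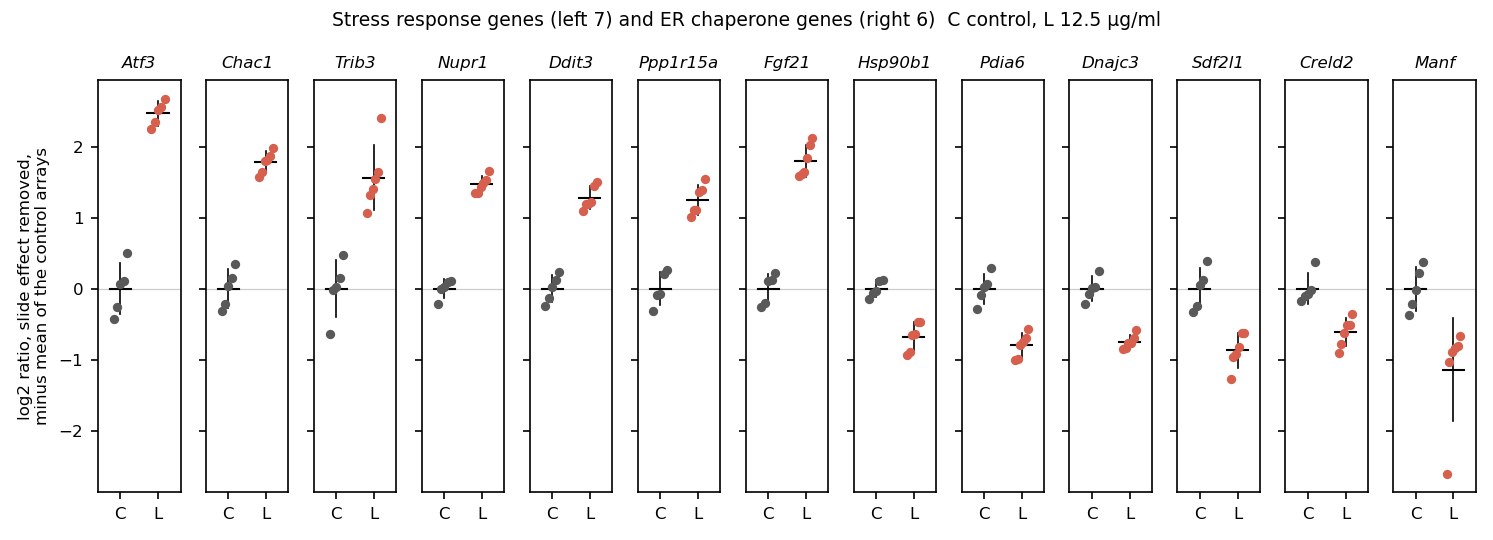
Log2 ratio of each control (C) and 12.5 µg/ml (L) array with the fitted slide effect removed, minus the mean of the control arrays (y axis), for 7 stress response genes and 6 ER chaperone genes. Points are arrays, horizontal lines means and vertical lines SDs; the first 7 genes rose by 1.25 to 2.47 and the other 6 fell by 0.61 to 1.14, with 1 Manf array far below the rest.

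Some immediate early genes and brakes on their kinases were called, all higher. All 18 listed AP-1 and immediate early genes were detected, of which 8 were called higher and 0 lower, with a median of 0.56. Fosl1 read -2.56, -1.59, -2.22, -2.46 and -2.005 on the control arrays and from -0.872 to 1.195 on the low dose arrays (2.01 ± 0.31, adjusted p = 0.00052). Jun rose by 1.19, Fos by 1.14, the nuclear receptor Nr4a1 by 1.26, and Klf4, Myc and Ier3 by 0.92 to 0.99. For Fos the study reports the opposite direction at this dose by RT-qPCR, and no significant change on its arrays. By RT-qPCR it lists no significant change of Jun at this dose, and a rise of Myc. Of 14 feedback genes of the kinase ERK 4 were called, all higher phosphatases: Dusp1 (1.05), Dusp6 (0.92), Dusp2 (0.87) and Dusp4 (0.86). Among the EGF receptor family and its ligands, 3 of 8 detected genes were higher, the ligands Ereg (0.84) and Hbegf (0.76) and the receptor inhibitor Errfi1 (1.29). Hbegf was measured on both sides of 2 slides only. Median centring left 4 of the 8 immediate early genes, 1 of the 4 phosphatases and 0 of the 3 EGF family genes called.

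The AP-1 site TGACTCA stood before 1197 of 27025 genes (4.43%) and 360 of the 10894 tested genes with a promoter in the table (3.3%). It stood before 14 of 224 called higher (6.25%) and 12 of 307 called lower (3.91%). It was in none of the 6 promoters that the table holds for the 8 called immediate early genes. Examples from the matrix protease and clotting genes called higher are shown, with the site in capitals.
Mmp3 (chr9:7445746-7445812, plus strand): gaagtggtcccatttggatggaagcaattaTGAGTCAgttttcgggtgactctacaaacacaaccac
Mmp13 (chr9:7272449-7272513, plus strand): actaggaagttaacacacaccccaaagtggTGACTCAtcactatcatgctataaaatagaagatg
F3 (chr3:121723372-121723438, plus strand): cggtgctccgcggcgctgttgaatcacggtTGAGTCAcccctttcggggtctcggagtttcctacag
Procr (chr2:155751033-155751099, plus strand): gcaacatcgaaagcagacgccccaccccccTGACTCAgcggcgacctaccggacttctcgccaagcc

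Some genes that build ribosomes or charge transfer RNAs were called, all higher. Of 29 ribosome biogenesis genes, all detected, 9 were called higher and 0 lower, with a median of 0.44 and within-slide medians of 0.37 to 0.70. The largest changes were in Nop56, a box C/D nucleolar protein (0.92), Nop2, a ribosomal RNA methyltransferase (0.88), and Ddx21, a nucleolar helicase (0.87). Nop2 read 0.77, 0.47, 0.46, 0.33 and 0.48 on the control arrays and 1.12 to 1.63 on the low dose arrays. Polr1b, a subunit of RNA polymerase I, rose by 0.81, and Wdr43, Rrs1, Mybbp1a, Wdr75 and Nop16 by 0.62 to 0.73. Of 20 aminoacyl-tRNA synthetases 3 were called, Tars (0.80), Sars (0.69) and Cars (0.62), all higher. Of 17 detected amino acid transporters 3 were higher, Slc7a11 (0.90), the arginine and lysine carrier Slc7a1 (0.83) and the glycine carrier Slc6a9 (0.83), while the glutamate carrier Slc1a3 fell by 1.41. Median centring called none of the ribosome biogenesis or synthetase genes, with medians of 0.292 and 0.159, and 1 of the 3 transporters.

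Transcription regulators changed in both directions. All 4 inhibitors of DNA binding, which block basic helix-loop-helix factors and are known targets of bone morphogenetic proteins, fell: Id1 by 1.25, Id2 by 1.25, Id3 by 1.28 and Id4 by 1.16. Id1 read -0.45, -0.18, -0.14, 0.48 and 0.38 on the control arrays and -1.82 to -0.652 on the low dose arrays, and Id4 0.74, 0.72, 1.53, 1.35 and 0.82 against -0.315 to 0.215. The groups did not overlap for either. Cebpd (-1.08) and Sox9 (-0.59) fell as well. Called higher were the chromatin proteins Hmga2 (1.28) and Hmga1 (1.07), Sox4 (0.84), Crem (0.84), Cebpa (0.83), Klf9 (0.75) and Cebpb (0.65). After median centring 5 of the 6 decreases and 0 of the 7 increases were called.

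**Figure D3:**
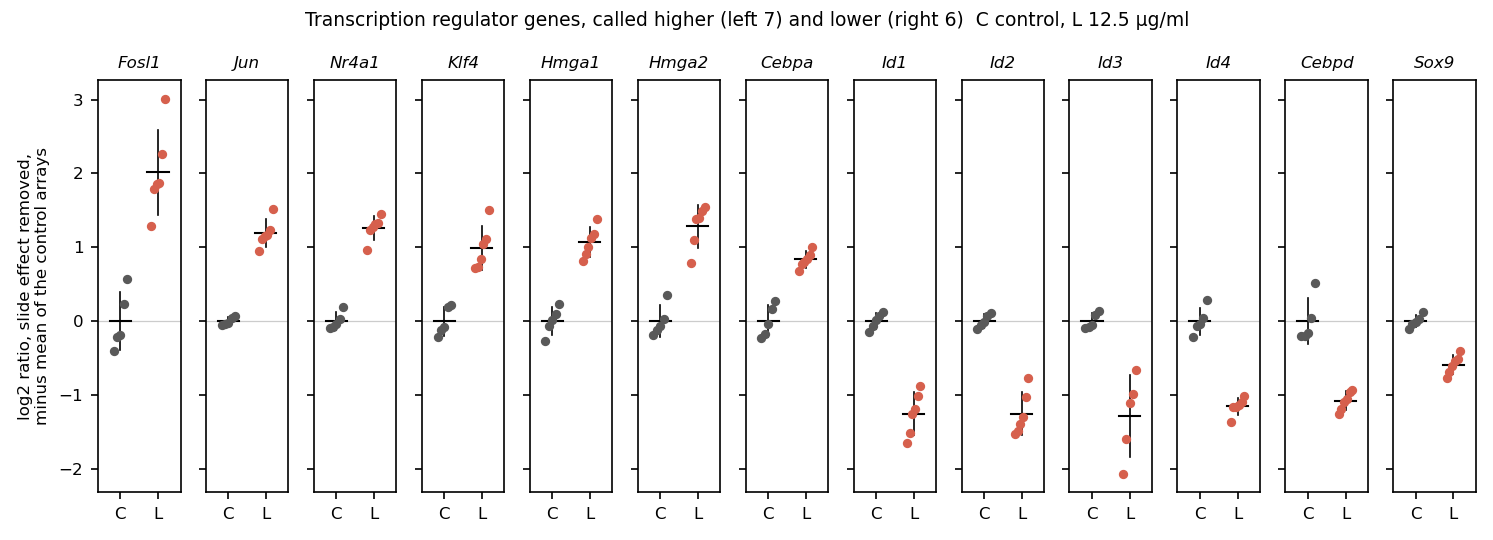
Log2 ratio of each control (C) and 12.5 µg/ml (L) array with the fitted slide effect removed, minus the mean of the control arrays (y axis), for 13 genes of transcription regulators. Points are arrays, horizontal lines means and vertical lines SDs; the 7 genes on the left rose by 0.83 to 2.01 and the 6 on the right, among them all 4 Id genes, fell by 0.59 to 1.28.

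Innate immune genes were mostly lower or not called. Of 13 detected acute phase and complement genes 6 were called lower and 0 higher, with a median of -0.85, the lowest of the 48 lists. Cd55, which shields cell membranes from complement, read 4.51, 3.01, 3.63, 3.52 and 2.83 on the control arrays and 1.396 to 1.94 on the low dose arrays (3.596-fold lower, adjusted p = 0.00015). The groups did not overlap. The proteases C1s1 (-1.19) and C1ra (-0.79), C3 (-0.92) and the lipopolysaccharide carrier Lbp (-1.08) also fell. Median centring kept 4 of the 6 calls. Of 11 genes of the inflammasome and interleukin 1 group, Il33, Il18 (-0.91) and the receptor Il1r1 (-0.85) fell and Il1rl1 rose. Of 13 chemokines Ccl5 rose by 1.63, while the membrane-bound Cx3cl1 (-1.45) and Cxcl12 (-0.59) fell. Of 13 NF-kappaB genes Tnfaip3, an inhibitor of that pathway, rose by 0.78 and the adhesion molecule Vcam1 fell by 0.59. The IL-6 family receptor Lifr fell by 1.12, the 1 call among 12 genes of its list. After median centring the interleukin 1 calls and that of Lifr were kept, Cxcl12 lost its call, and neither NF-kappaB gene was called.

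Of 22 interferon response genes 3 were higher, Ifit1 (1.86), Ifit3 (0.94) and Isg15 (0.71), and the immunoproteasome subunit Psmb9 was lower (-0.69), beside a median of -0.01. Ifit1 read -2.73, -2.15, -2.97, -2.23 and -1.62 on the control arrays and -0.757 to -0.121 on the low dose arrays, and was well above background on 1 control array. Median centring left 1 of the 3 called.

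Among clotting genes, 4 of 9 detected members rose and 1 fell. Among them Serpinb2, an inhibitor of plasminogen activators, rose by 1.38 (well above background on 1 control array), tissue factor F3 by 0.64 and the protein C receptor Procr by 0.87, while the plasminogen activator Plat fell by 0.84. Ptgs2, the inducible cyclooxygenase, rose by 1.43 ± 0.18 (adjusted p = 7.7e-05), with control arrays at 1.497, 1.12, 1.31, 0.86 and 0.73 and low dose arrays at 2.00 to 3.07. Ptgr1, which breaks down prostaglandins, fell by 0.70. Edn1, the vasoconstrictor endothelin, rose by 1.17 ± 0.11 and by 1.13 to 1.23 within each slide. Ccn2 (1.49) and Ankrd1 (1.21), both targets of YAP, rose, and the myosin kinase Mylk fell by 0.68. Median centring left 2 of the 4 clotting increases called, kept those of Plat, Edn1 and Ccn2, and did not call Ptgs2, Ptgr1, Ankrd1 or Mylk.

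Some genes of fuel metabolism were called, all lower. These are transcript levels, and metabolic activity was not measured. Of 20 fatty acid oxidation genes 5 were lower and 0 higher, with a median of -0.47 and within-slide medians of -0.62 to -0.31. They were Hadhb (-0.82), Acadm (-0.76), Echs1 (-0.71), Acaa2 (-0.62) and Hadh (-0.62), which carry out successive steps of the mitochondrial cycle. Acadm, the medium chain dehydrogenase, read -0.96, -0.83, -0.65, -0.71 and -0.57 on the control arrays and -1.76 to -1.34 on the low dose arrays. Of 20 citrate cycle genes Idh1 (-0.95), Mdh1 (-0.64) and Pcx (-0.64) fell, of which Idh1 and Mdh1 encode cytosolic enzymes. In fatty acid synthesis Acly (-0.75), Scd2 (-1.08) and Acsl3 (-0.67) fell among 15 genes, in branched chain amino acid breakdown Aldh6a1 (-0.80) and Pccb (-0.79) among 18, and in glycolysis Pfkm (-0.62) among 19. No gene of the respiratory chain was called among 25, with a median of -0.18, beside 5.16% of all genes. Median centring kept 3 of the 5 fatty acid oxidation calls, those of Idh1 and Pccb, and none of the other named citrate cycle, fatty acid synthesis, branched chain and glycolysis calls. It called 1 fatty acid synthesis gene lower that was not called before.

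Of 22 p53 targets 6 rose and 2 fell, with a median of 0.30. Cdkn1a and Mdm2, both detected, were not called. The increases were Gdf15, a secreted stress factor (1.35), Gadd45a (1.15), Sesn2 (1.01), Trp53inp1 (0.83), and the BH3-only death genes Bbc3 (0.72) and Pmaip1 (0.60). The death receptor Fas (-0.78) and Sesn1 (-0.77) fell. Sesn2 is on the ATF4 list too, and median centring left 1 increase and 1 decrease called. Of 18 apoptosis regulators Birc2 alone was called (-0.66). Of 24 mitosis genes 0 were called and of 32 replication genes 1, Rrm2 (-0.69), beside 5.16% of all genes, and among 14 genes of the G1 phase the inhibitors Cdkn2d (-1.04) and Cdkn2c (-0.85) fell. Rrm2 and Cdkn2c lost their calls under median centring, which called 2 genes of the G1 list lower.

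In the antioxidant list driven by NRF2, 3 of 21 genes rose, Slc7a11, Hmox1 (0.80) and Txnrd1 (0.73), and Sod1 fell by 0.76, with a median of -0.11. Hmox1, heme oxygenase, moved by -0.02 to 1.36 within single slides, so its rise did not appear on every slide. Mt1, a metallothionein, fell by 0.86 and Trf, transferrin, by 1.61. The autophagy receptor Sqstm1 rose by 1.01 and Wipi1 fell by 0.74. Median centring kept the calls of Slc7a11 and Trf and not those of Hmox1, Txnrd1, Sod1, Mt1, Sqstm1 and Wipi1. None of 25 lysosome genes, 16 cytosolic heat shock genes or 13 tubulins was called, beside 5.16% of all genes.

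Developmental signals moved in single genes. In the Wnt list Fzd4 (-1.12), Fzd1 (-0.94) and Wnt5a (-0.75) fell among 15 genes and kept their calls after median centring. Fgf18 (-1.35) and Fgf1 (-0.81) fell. Dhrs3, a retinal reductase, fell by 1.19, Vegfd by 0.69, the semaphorin Sema6a by 0.83, the integrin Itga1 by 0.89 and Cavin2, a caveola protein, by 0.87. Of 15 circadian genes Dbp (-1.08) and Tef (-0.85) fell and their antagonist Nfil3 rose (0.97), of which Dbp kept its call after median centring. Fgf1, Sema6a and Cavin2 lost theirs in that setting, which called 1 other gene of the semaphorin list lower. No detected member of the Notch (8), IGF (10), epithelial junction and keratin (14) or mesenchymal (12) lists was called, beside 5.16% of all genes. Median centring called 1 gene of the junction and keratin list lower. The keratin Krt23, which is not on that list, was called higher.

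**Figure D4:**
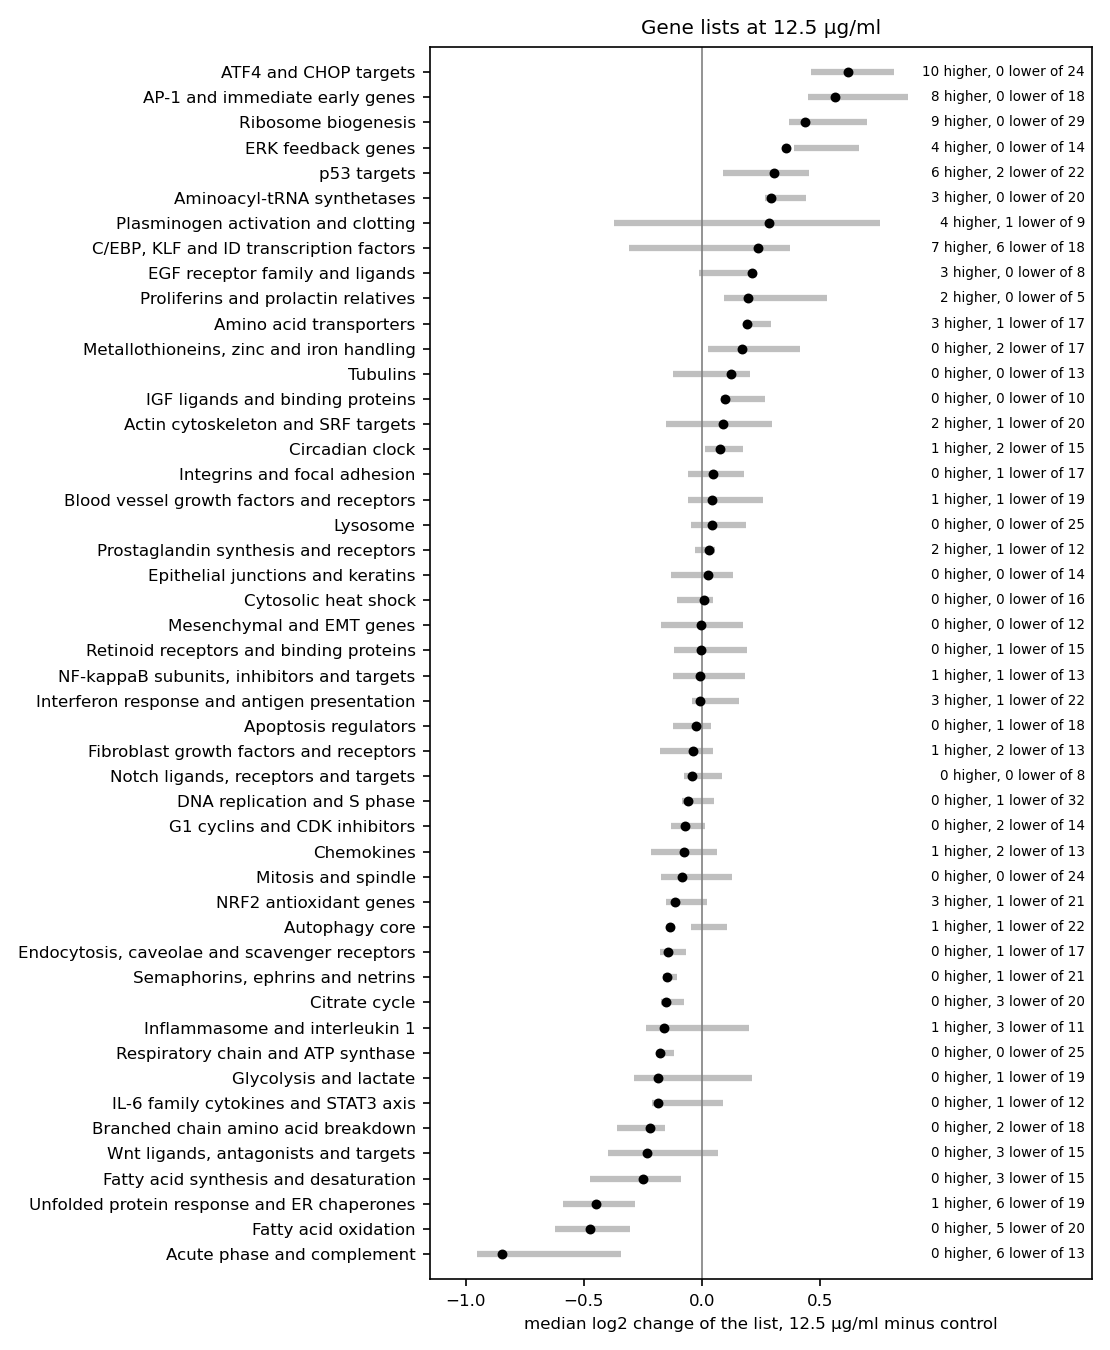
Median log2 change of the detected members of 48 gene lists (x axis, black points) between 12.5 µg/ml and control arrays, with the range of the medians within slides 1 to 4 as grey bars and the numbers of members called on the right. The medians run from -0.85 for acute phase and complement to 0.62 for ATF4 and CHOP targets, and 9 lists hold no called gene.

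The lists of the study itself, which are no independent evidence of a direction, held 7 higher and 12 lower of 34 detected fibrosis genes, 5 and 14 of 32 aryl hydrocarbon receptor genes, 0 and 7 of 20 cholesterol genes and 2 and 6 of 10 glutathione genes. Median centring gave 7 and 7, 3 and 8, 0 and 5, and 2 and 2 in that order. Of 7 detected fibroblast markers Dcn (-1.48), Pdgfra (-1.27), Col1a1 (-0.88) and Col1a2 (-0.77) were called lower, and of these Pdgfra kept its call after median centring. Pdgfrb (-0.456), Postn (-0.0605) and Thy1 (0.104) were not called. Since Pdgfra, Pdgfrb, Col1a1 and Col1a2 are also on the fibrosis list, the markers are no separate evidence. The median of the 7 detected markers lay between -1.16 and -0.45 on the low dose arrays, slide effect removed and relative to the control mean, and between -0.20 and 0.32 on the controls. Fewer cells of a type and less RNA per cell cannot be told apart in such samples, and the part of such cells in the other decreases was not tested. The markers of macrophages (5 of 8 detected) and of endothelium (3 of 6) had no called gene, and of the alveolar type 1 markers Hopx fell by 1.33.

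The change at 100 µg/ml differed from that at 12.5 µg/ml for 45 of the 706 called genes (adjusted p of the difference at most 0.05), beside 0.819% of all genes tested. Of these, 44 moved further at the high dose. Mgp changed by -2.39 at the low and -4.56 at the high dose (difference -2.17, adjusted p = 0.016), and Tgfb2, a transforming growth factor, by -0.85 and -1.84 (difference -0.98, adjusted p = 0.00013). Nrep (-0.74 and -2.10), Zfp467 (-1.28 and -2.20), Sipa1l2 (-0.78 and -1.70) and Lrrn4 (-0.96 and -1.87) also fell further, and Angptl6 (1.08 and 2.24) rose further. The 1 gene with a larger change at the low dose was Krt23, a keratin, well above background on 2 control arrays. It read 0.37, -0.15, 0.30, 0.14 and -0.31 on the control arrays and 0.774 to 1.52 on the low dose arrays, a change of 1.02 against 0.49 at the high dose (difference -0.53, adjusted p = 0.042). Both comparisons share the control arrays, while the difference itself rests on the 6 low and 6 high dose arrays.

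**Figure D5:**
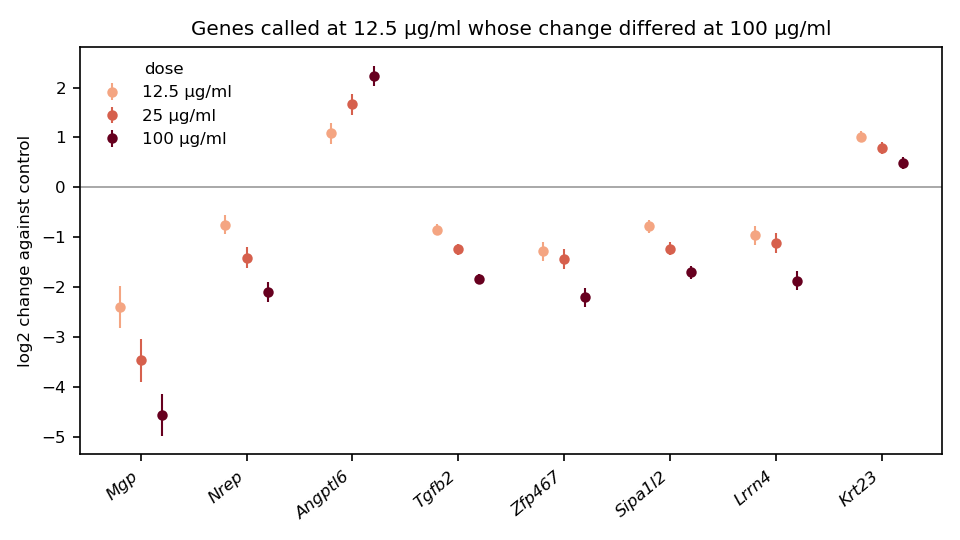
Log2 change against control (y axis) at 12.5, 25 and 100 µg/ml for 8 genes called at 12.5 µg/ml (x axis) whose change differed from that at 100 µg/ml; points are fitted changes and bars their SE. The first 7 moved further at the highest dose, Mgp from -2.39 to -4.56, and Krt23 moved less, from 1.02 to 0.49.

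Some called genes were well above background on no array of 1 group, so that only a lower limit of their change is known. For these the mean Cy5 signal of the brighter group was set against the higher of the probe's own signal and the lowest signal well above background on each array of the dimmer group. This is open to dye bias since no dyes were swapped. At the low dose Sprr2h, a cornified envelope protein, was at least 1.90-fold higher (adjusted p = 0.007), Tbxas1, thromboxane synthase, at least 1.37-fold, Try4 at least 1.25-fold, though well above background on 1 of 6 low dose arrays, and Sgms2 at least 1.23-fold. Serpind1, heparin cofactor, was at least 1.95-fold lower (adjusted p = 0.00059) and Msmp at least 1.80-fold. Limch1 was at least 1.49-fold and Slitrk5 at least 1.36-fold lower, each well above background on few control arrays, 3 and 2 of 5.

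Of the reference genes none was called: Actb changed by 0.62 ± 0.33 (adjusted p = 0.44), Gapdh by -0.10 and Hprt by 0.24. Actb read 3.22 on low dose replicate 4, while the lowest low dose array read 0.249 and the median was 0.427.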

How the data were processed

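Per the labels, RNA of each sample was labelled with Cy5 and hybridised beside Cy3 labelled reference RNA on Agilent two-colour arrays. The deposited files hold, per spot, the median intensity and local background of both dyes and the log10 ratio of the scanner software (Feature Extraction 10.7.3.1 per the file headers). The authors also deposited a table of log2 ratios, which served as an alternative only. Their methods describe median signals taken without subtracting background and the averaging of repeated probes by the median, but do not tie these steps to that table.

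Outlier spots were left out, ratios were normalised within each array by loess in limma 3.58.1 (R 4.3.3), and spots of a probe were averaged. Of 55681 probes 26413 were named through RefSeq, giving 20018 genes. A spot was detected above the negative controls (trimmed mean plus 3 SD), and a gene was tested if its probe was detected on at least 4 arrays of either group, which left 13681. Group and slide were fitted over all 22 arrays with lmFit and eBayes, and p-values were adjusted by Benjamini-Hochberg. The script was tested on simulated data. The members and lists were chosen with earlier results of these data known. Named were the 12 largest changes in each direction well above background in both groups without overlap, up to 5 measured in 1 group only, up to 3 called members of each list and direction, up to 8 that differed from the high dose and the reference genes. Further called list members, Mmp13 and Hspa5 were named after their values were seen. Deviations from the group means in samples of the same number had correlations of 0.675, 0.569, 0.574, 0.23 and 0.287. The first 4 pairs shared a slide, and samples of different number were not compared. These values therefore cannot tell pairing by number from a shared slide. An alternative fit used the number in place of slide. Some items that the rule names are not reported here. The number of arrays limits the precision.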

Additional observations from a re-analysis of the deposited data

Results flagged for a closer look

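In 25 of 346 pairs of a gene named here and a group (7.23%), 1 array stood apart from the others of its group by Dixon's 95% rule on log2 ratios with the slide effect removed, where chance flags about 1 in 20.

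Control replicate 1 stood apart in 10 of them: Atf6 (-0.542), Creld2 (0.00625), Ddx21 (1.596), Errfi1 (-2.58), Fgf1 (1.80), Il33 (1.57), Nop2 (0.758), Nop56 (1.43), Trf (3.26) and Txnrd1 (-0.0195). Low dose replicate 4 stood apart in Actb (2.63), Dyrk3 (2.87), Manf (-2.33), Psmb9 (-4.39) and Zfp467 (-0.339). Low dose replicate 1 did so in Angptl6 (0.6249), Gadd45a (0.0162), Hbegf (0.0821) and Slc7a11 (2.20), and low dose replicate 3 in Scd2 (-1.03) and Try4 (-0.492). The remaining values were Dyrk3 on control replicate 4 (-1.149), Mmp13 (-0.578) and Sesn1 (-0.312) on control replicate 3 and Sqstm1 on control replicate 5 (0.0977).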

How the results depend on the processing

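The count of 706 called genes (296 higher, 410 lower) stayed within 1.5 times under most settings tried. Median centring gave 297 (49 higher, 248 lower). A 2-fold threshold gave 194 (85 higher, 109 lower) and no fold threshold 1310 (616 higher, 694 lower). With control and low dose arrays alone 256 genes were called lower, and without slide 3 265 were. Leaving out 1 array at a time gave 558 to 814 calls, the lowest without control replicate 3 and the highest without low replicate 2. With the replicate block, the number in place of slide, 852 were called. No called gene named here reversed in any of the 30 other settings, and 45 of the 170 kept their call in all of them. Those settings include the 2-fold threshold, under which a smaller change cannot keep its call and 97 named genes lost theirs. Under median centring 96 lost theirs. List medians were less stable in sign. Those of 59 lists, study and marker lists included, were also taken within single slides, without low replicate 1 and under median centring. Of these 354 values 71 had the opposite sign to the main median. The ATF4 and CHOP, unfolded protein response, ribosome biogenesis, fatty acid oxidation and acute phase medians kept their sign throughout. Those of the mitosis and chemokine lists did not. Gapdh, which was not called, changed sign to 0.003958 without control replicate 2, 0.0182 without low replicate 1 and 0.00185 without slide 1. Its values with 1 array left out ran from -0.188 to 0.0182. The causes were not tested. Genes near background carry ratios that understate a change.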
